A study of Mus musculus with 12 samples.

Results

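Nucleases clear the DNA and RNA that dying cells leave behind, and the mRNA levels of 7 genes for such enzymes were followed in macrophages of injured mouse muscle. The genes are Dnase1l3, Dnase2a, Pld3, Pld4, Rnaset2a, Rnaset2b and Trex1, 7 of the 55414 genes of the counts table, matched by symbol to their Ensembl gene ID. They were chosen from results on these same libraries, in which Dnase1l3 stood out for its higher level at 4 than at 2 days post injury (dpi), with the other 6 added as enzymes of the same task. Their own levels and differences between days are therefore a description, given with the spread between libraries and without a test. Tests are given for other genes of nucleic acid breakdown and sensing, whose lists hold none of the 7.

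The mice were C57BL6J wild type males of 8 to 12 weeks. All underwent hindlimb ischemia, in which the femoral artery is tied off and cut out, and there was no uninjured group. Macrophages of the calf muscle, sorted as t-CD45+CD11b+F4/80+CD64+ cells, were taken at 1, 2, 4 and 7 dpi, with 3 RNA-seq libraries a day. The sources used here do not give the number of mice behind a library, so P values refer to the spread among these libraries and part of that spread may be technical. Libraries held 19528316 to 33599472 counts, of which a single gene without a symbol took 14.8% to 55.7%, and 8992759 to 18581365 counts remained without it. The 7 macrophage marker genes were present at every day, with a summed level of 2349 to 3603 CPM (the share of a library's counts, per 1000000, after TMM scaling). Of the genes for the sorted antigens, Adgre1 (F4/80) had 245 to 316.5 CPM at 1 dpi and 578 to 775 at 7 dpi, Fcgr1 (CD64) 373.5 to 525 and 118 to 164, and Itgam (CD11b) 169 to 191 and 31.1 to 44.3.

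Extracellular DNA is cut by secreted DNases, of which DNASE1L3 can digest DNA that is still bound in chromatin or in the vesicles of dying cells. What a macrophage engulfs reaches the lysosome, where the acid endonuclease DNASE2A cuts double-stranded DNA, the exonucleases PLD3 and PLD4 trim single-stranded DNA and RNA, and RNASET2 cuts RNA. TREX1 degrades DNA in the cytosol. Loss of these enzymes leaves nucleic acid that Toll-like receptors of the endosome or sensors of the cytosol detect, and type I interferon follows in several of these deficiencies.

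For 3 of the 7 genes, sequence and annotation bear on what could be counted, and these are shown first. Mice carry a pair of genes for RNase T2, Rnaset2a and Rnaset2b. In the GENCODE annotation of GRCm38, the coding sequences of the transcripts Rnaset2a-201 and Rnaset2b-201 were 777 bases long and differed at 0 positions, so a read from the coding part could not be assigned to either gene. The first 150 bases of both, from the start codon and in lower case since no base differs, are printed to show this.
Rnaset2a-201: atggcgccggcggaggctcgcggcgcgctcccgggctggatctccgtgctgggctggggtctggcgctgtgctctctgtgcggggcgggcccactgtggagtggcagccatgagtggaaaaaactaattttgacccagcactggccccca
Rnaset2b-201: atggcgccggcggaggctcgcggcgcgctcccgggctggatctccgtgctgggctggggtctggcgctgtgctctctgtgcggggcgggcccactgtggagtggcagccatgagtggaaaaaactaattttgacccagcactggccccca

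Of all stretches of 100 bases in the transcripts of Rnaset2a, 66.0% (2142 of 3243) also occurred in another gene, and 46.2% (2142 of 4633) of those of Rnaset2b did. The other gene was mostly the partner, and for part of them Gm49673 and Gm49721, gene models that share 909 exonic bp with Rnaset2a and Rnaset2b, respectively. Rnaset2a had 88 counts in all 12 libraries together and Rnaset2b 102. How multi-mapped and overlapping reads were handled is not given in the sources used here.

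Trex1 had 0 counts in each of the 12 libraries. A count of 0 allows up to 3 counts, which is 0.0810 to 0.236 CPM depending on the library. All 1147 exonic bp of Trex1 lie within exons of Atrip on the same strand, a gene for a partner of the DNA damage kinase ATR, which had 2346 counts. Across the annotation, 179 of 179 protein-coding genes whose every exonic base is shared with another gene had 0 counts in all libraries, against 4616 of 15620 (29.6%) of those that share no exonic base. The 0 of Trex1 is therefore no measure of its expression.

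The other genes were less affected. Dnase1l3, Pld3 and Pld4 shared no exonic base with another gene and had no stretch of 100 bases in common with one. Dnase2a shared 1616 of its 5389 exonic bp with Mast1 on the opposite strand, a gene with 110 counts, and the Smart-seq2/3 libraries do not mark the strand. In all, 6 of the 7 genes passed the filter on low counts, Trex1 being the exception, and 4 of them, Dnase1l3, Dnase2a, Pld3 and Pld4, had enough counts to follow over time.

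RefSeq promoter windows (GRCm38.p6, from 250 bases before to 50 after the start) were found for 6 of the 7 genes, not for Dnase1l3. They were searched on both strands for 4 motifs known for myeloid, interferon and lysosomal genes. These were GAGGAAGT (PU.1-type ETS), GGAA and GAAA with any 2 bases between them (IRF-ETS composite), GAAA and GAAA with any 2 bases between them (interferon-stimulated response element) and CACGTG (CLEAR-type E-box), which occur in 3.2%, 2.72%, 3.44% and 7.15% of 32851 windows. The composite can overlap either of its neighbours in this list, since GGAA is part of GAGGAAGT and its GAAA may be part of a response element. Of the genes followed over time, Pld4 and Pld3 had a match, and these stretches are printed with the match in capitals.
Pld4, chr12:112760535-112760684, plus strand: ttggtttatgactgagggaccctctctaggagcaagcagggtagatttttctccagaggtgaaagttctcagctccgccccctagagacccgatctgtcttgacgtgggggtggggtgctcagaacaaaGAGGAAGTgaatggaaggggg
Pld3, chr7:27553319-27553468, minus strand: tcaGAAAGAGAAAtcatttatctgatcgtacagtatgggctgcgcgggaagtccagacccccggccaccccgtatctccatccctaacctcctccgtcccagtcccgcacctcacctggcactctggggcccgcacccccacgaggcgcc

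The PU.1-type match of Pld4 began 9 bases after the start base, and the match of Pld3 to the response element lay at -247. The PU.1-type motif also occurred in 1 of the 2 windows of Trex1, as ACTTCCTC at its start base. No window of Dnase2a, Rnaset2a or Rnaset2b held any of the 4 motifs. A match is a string of letters in a window and shows no binding.

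Dnase1l3, the secreted DNase, was nearly absent at 1 and 2 dpi and present in every library from 4 dpi on. It had 0, 9 and 2 counts in the 3 libraries of 1 dpi and 8, 4 and 4 in those of 2 dpi. At 4 dpi it had 682, 1146 and 1346 counts, and at 7 dpi 822, 257 and 869. The libraries of 4 and 7 dpi lay above all 6 of the earlier days, with no overlap.

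In CPM the means of Dnase1l3 at 1 and 2 dpi were 0.154 ± 0.192 and 0.214 ± 0.0797 (SD, n = 3), those at 4 and 7 dpi 43.5 ± 20.3 and 18.2 ± 9.0. The fitted log2 fold change (log2FC) from 2 to 4 dpi was 7.63 (SE 0.62), the change for which the gene was chosen. From 4 to 7 dpi it was -1.25 (SE 0.41), and here the libraries overlapped, since 4 dpi replicate 1, with 20.6 CPM, lay below the 22.2 and 24.6 CPM of 7 dpi replicates 1 and 3. Without 7 dpi replicate 2, which had 7.92 CPM, the difference from 4 to 7 dpi was -0.88, and without 4 dpi replicate 1 it was -1.61. In order of level, 4 dpi was followed by 7 dpi, and both lay far above 2 and 1 dpi, which did not differ beyond their spread. In bulk RNA, a change in the number of cells that carry a transcript and a change in its amount per cell cannot be told apart.

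**Figure D1:**
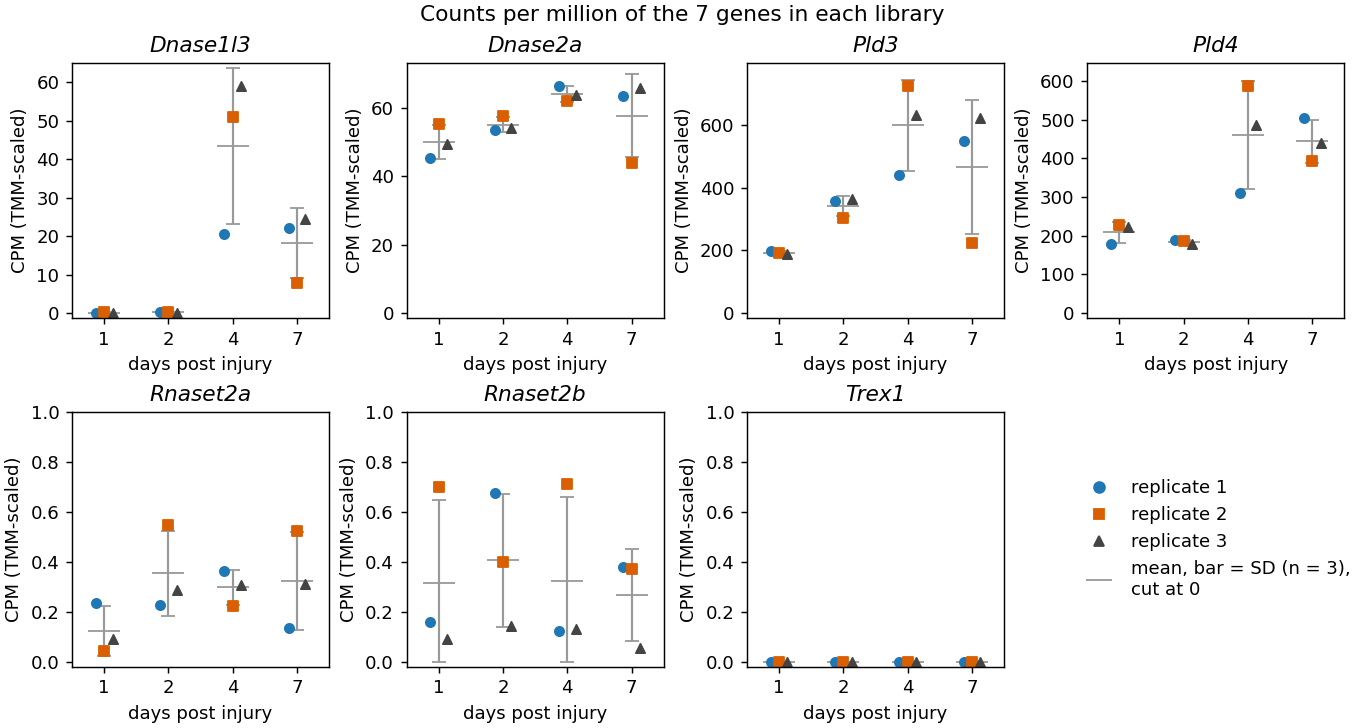
CPM (y-axis) of each of the 7 genes by days post injury (x-axis), with a symbol per replicate, the mean as a grey line and the SD of 3 libraries as a bar. Dnase1l3 goes from at most 0.369 CPM at 1 and 2 dpi to between 7.92 and 59.1 CPM at 4 and 7 dpi, Rnaset2a and Rnaset2b stay under 1 CPM, and Trex1 is at 0 throughout.

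Dnase2a, the acid DNase of the lysosome, was found at a similar level on all days. Its CPM was 45.2, 55.2 and 49.4 in the libraries of 1 dpi, 53.6, 57.4 and 53.9 at 2 dpi, 66.4, 61.8 and 63.7 at 4 dpi and 63.4, 43.8 and 65.8 at 7 dpi. Only between 2 and 4 dpi did the libraries of successive days not overlap, with means of 55.0 ± 2.15 (SD, n = 3) and 64.0 ± 2.27. The log2FC was 0.14 (SE 0.18) from 1 to 2 dpi, 0.22 (SE 0.18) from 2 to 4 dpi and -0.15 (SE 0.18) from 4 to 7 dpi. The last was near 0 (0.03) without 7 dpi replicate 2 and -0.25 without 7 dpi replicate 3. Over the whole course its highest library was less than 2 times its lowest, while the mean of Dnase1l3 was 203 times higher at 4 dpi than at 2 dpi.

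Pld3 had a higher mean at 2 than at 1 dpi and a higher one again at 4 dpi. It had 196.9, 193 and 187 CPM at 1 dpi and 356, 304 and 362 CPM at 2 dpi, and the libraries of these days did not overlap. At 4 dpi they reached 439, 724 and 631 CPM, again above all those of the day before. The log2FC was 0.82 (SE 0.29) from 1 to 2 dpi and 0.81 (SE 0.29) from 2 to 4 dpi.

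At 7 dpi, Pld3 had 549 and 622 CPM in replicates 1 and 3 and 223 in replicate 2, so that the libraries of 7 dpi spanned those of 2 dpi and overlapped those of 4 dpi. The log2FC of -0.36 (SE 0.29) from 4 to 7 dpi became -0.02 without replicate 2 and -0.62 without replicate 3. Replicate 2 was also the lowest of its day for Dnase1l3, Dnase2a and Pld4. The macrophage marker Cd68 was lowest there too (338.5 CPM, with 734 and 816 in the others), as were Fcgr1, Itgam and Mertk. Adgre1, Csf1r and Ptprc were highest there. The gene without a symbol took 30.1% of the counts of replicate 2, and 14.8% and 21.4% in replicates 1 and 3.

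Pld4, the other lysosomal exonuclease of the pair, did not share the first step of Pld3. Its CPM was 178, 227 and 222 at 1 dpi and 189, 186 and 178.5 at 2 dpi, with overlap between the days and a log2FC of -0.18 (SE 0.22). It then reached 311, 588 and 485 CPM at 4 dpi and stayed there at 7 dpi, with 503.5, 392 and 439 CPM. From 2 to 4 dpi the log2FC was 1.32 (SE 0.22), with no overlap, and from 4 to 7 dpi it was -0.05 (SE 0.22), with overlap. The 4 dpi library lowest for Pld4, replicate 1, was also the lowest of that day for Dnase1l3 and Pld3, and without it the step from 2 to 4 dpi of Pld4 was 1.54.

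Counting the 6 genes that passed the filter, 1 of 6 did not overlap between 1 and 2 dpi (Pld3), 4 of 6 between 2 and 4 dpi and 0 of 6 between 4 and 7 dpi. Among all 14310 genes tested, the libraries of the 2 days did not overlap, in either direction, for 39.4%, 44.2% and 40.0%. The genes were chosen in view of the change from 2 to 4 dpi, so nothing is read from that count.

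Rnaset2a had 1 to 17 counts per library and Rnaset2b 2 to 18. Rnaset2a was at 0.0410 to 0.547 CPM and Rnaset2b at 0.0565 to 0.710 CPM, and all days overlapped for both. With the counts of both genes summed, the log2FC was 0.77 (SE 0.84), -0.29 (SE 0.82) and -0.09 (SE 0.81) in the 3 transitions. These SEs span a change in either direction, and how reads of the shared sequence entered the counts is not known.

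To compare levels between genes, CPM was divided by exonic length in kb (RPKM). Levels are as counted, so genes with shared exons or sequence (Trex1, Rnaset2a, Rnaset2b, Dnase2a and others of the lists) may rank too low. Among 41 nuclease genes, the 7 and the 34 of the DNA nuclease, RNA nuclease and phospholipase D lists, Pld3 had the highest level per length at 1 dpi (65.8 ± 1.66 RPKM, SD, n = 3), 4 dpi (204.5 ± 49.8) and 7 dpi (159 ± 72.7). At 2 dpi, with 116.5 ± 10.9 RPKM, it ranked 2, after Rnase4, a secreted RNase. Pld4 ranked 2, 3, 3 and 2 over the 4 days, with 60.4 ± 7.71, 53.2 ± 1.52, 133 ± 40.5 and 128.5 ± 16.1 RPKM.

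Dnase2a ranked 6, 7, 7 and 6, with 9.26, 10.2, 11.9 and 10.7 RPKM. Dnase1l3 went from rank 34 and 33, with 0.0299 and 0.0416 RPKM, to rank 9 at 4 dpi (8.45 ± 3.93 RPKM) and rank 11 at 7 dpi (3.54 ± 1.75 RPKM). Even at its highest, Dnase1l3 lay at 0.325, 0.861 and 0.971 times the RPKM of Dnase2a in the 3 libraries of 4 dpi, and at 0.366, 0.189 and 0.391 times at 7 dpi. As counted, the pair was thus close in replicates 2 and 3 of 4 dpi and apart in replicate 1. Since Dnase2a shares 1616 of its 5389 exonic bp with Mast1, its RPKM may be too low and these ratios too high.

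The ratio of the lysosomal exonucleases differed between days. Per length, Pld3 was at 1.31, 1.01 and 0.999 times the level of Pld4 in the libraries of 1 dpi and at 2.23, 1.94 and 2.40 times at 2 dpi. The ratio was 1.67, 1.46 and 1.54 at 4 dpi. At 7 dpi it was 1.29, 0.674 and 1.68, the only day with a library clearly in favour of Pld4, again replicate 2. The ratios of 2 dpi lay above those of 1 and 4 dpi with no overlap.

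**Figure D2:**
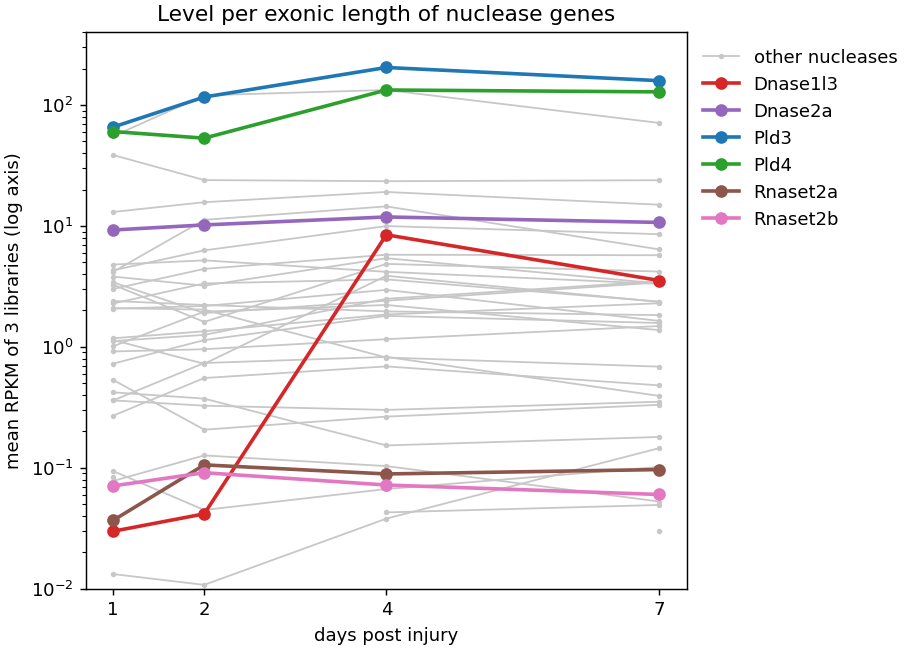
Mean RPKM of 3 libraries (y-axis, log scale) against days post injury (x-axis) for 6 of the genes in colour and for other nuclease genes in grey, with means under 0.01 and Trex1, at 0, not drawn. Pld3 and Pld4 lie at 53.2 to 204.5 RPKM, with the grey line of Rnase4 among them (55.3, 120.3, 133 and 71.1 RPKM). Dnase1l3 crosses from 0.0416 RPKM at 2 dpi to 8.45 RPKM at 4 dpi, under Dnase2a, whose level may be too low for its shared exons.

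The other genes of the pathway were taken from 5 lists with 75 genes, of which 64 passed the filter. The edgeR quasi-likelihood test called a gene a DEG where its FDR was under 0.05 and its log2FC beyond 1 in either direction. From 1 to 2 dpi, 2 of the 64 rose and 5 fell, where 5.09% of all genes tested rose and 3.97% fell. From 2 to 4 dpi, 16 of 64 rose (25.0%) and 3 fell, beside 8.02% and 3.88% of all genes. From 4 to 7 dpi, 0 of 64 rose and 3 fell, beside 7.44% and 5.2% of all genes, and at an unadjusted P under 0.05 in edgeR 2 were higher and 19 lower. DESeq2 and limma-voom also called 0 as rising in that step. The median log2FC of the 64 genes was -0.06, 0.38 and -0.30, and that of all genes tested 0.01, 0.04 and -0.03.

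Among the other DNA nucleases, 8 of 12 genes were tested. Endod1, an endonuclease-domain protein, rose from 19.4 ± 2.69 CPM (SD, n = 3) at 1 dpi to 52.2 ± 2.84 at 2 dpi (log2FC = 1.43, SE 0.23, adjusted P = 0.000776, edgeR). It fell from 67.4 ± 21.2 CPM at 4 dpi to 29.7 ± 7.20 at 7 dpi (log2FC = -1.18, SE 0.23, adjusted P = 0.00229, edgeR), a call lost on the fold threshold without 4 dpi replicate 1 (-0.91) or 7 dpi replicate 2 (-0.99). Aen, an exonuclease induced by p53, fell from 11.8 to 4.74 CPM between 2 and 4 dpi (log2FC = -1.30, SE 0.30, adjusted P = 0.00673, edgeR).

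Of the RNA nucleases, 15 of 18 genes were tested. Rnase4, which ranked 2 per length at 4 dpi, rose from 90.6 ± 25.4 CPM at 1 dpi to 196.9 ± 19.5 at 2 dpi (log2FC = 1.12, SE 0.21, adjusted P = 0.0022, edgeR), at 0.95 without 1 dpi replicate 3 and then under the fold threshold. Rnase6, an antimicrobial RNase of the RNase A family, rose from 1.93 to 10.3 CPM between 2 and 4 dpi (log2FC = 2.42, SE 0.32, adjusted P = 9.19e-05, edgeR). Isg20, an interferon-induced exonuclease of single-stranded RNA, rose in the same step (log2FC = 1.59, SE 0.27, adjusted P = 0.000698, edgeR). Its fall from 1 to 2 dpi (log2FC = -1.02, SE 0.27, adjusted P = 0.0184) was lost with limma-voom (-1.04), without 1 dpi replicate 2 or 3 (-0.97 and -0.88) or 2 dpi replicate 2 or 3 (-0.89 and -1.02), and without the gene that took the most counts (-0.998).

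Of the 16 genes that rose from 2 to 4 dpi, 11 were of the 23 in the sensing list, which holds sensors of nucleic acid and their signalling partners, at a list median of 0.88. Tlr9, the endosomal receptor for DNA, rose from 18.4 ± 2.95 to 119 ± 30.1 CPM (log2FC = 2.70, SE 0.21, adjusted P = 2.03e-06, edgeR). Irf7, the transcription factor that drives interferon genes downstream of these receptors, rose from 34.5 ± 9.89 to 295 ± 102 CPM (log2FC = 3.10, SE 0.39, adjusted P = 5.94e-05). Rigi, a sensor of viral RNA in the cytosol, rose from 19.6 ± 4.43 to 66.2 ± 17.5 CPM (log2FC = 1.76, SE 0.25, adjusted P = 0.000151). Other endosomal receptors of RNA and their chaperone Unc93b1 were picked out after their values were seen. Tlr3 (log2FC = 2.11), Tlr7 (1.06), Tlr8 (1.57) and Unc93b1 (1.60) were DEGs in this step (edgeR, adjusted P = 0.000888, 0.00342, 0.000362 and 0.000151). Tlr13, a receptor of bacterial RNA, was not (179 ± 5.65 and 167.5 ± 17.7 CPM, log2FC = -0.10, SE 0.21, adjusted P = 0.79, edgeR).

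From 1 to 2 dpi, 3 of the 23 sensing genes fell. They were Ifi204, a DNA sensor of the interferon-inducible p200 family (log2FC = -1.28, SE 0.26, adjusted P = 0.00326, edgeR), Zbp1, a sensor of Z-form nucleic acid (log2FC = -1.23, SE 0.31, adjusted P = 0.0155), and Irf7 (log2FC = -1.20, SE 0.37, adjusted P = 0.0404). None of these calls held under every omission of a library, though each log2FC stayed negative. That of Ifi204 was lost without 1 dpi replicate 1 (-0.99), and that of Zbp1 without 1 dpi replicate 3 (-0.96) or 2 dpi replicates 2 or 3 (-1.01 and -1.23). The call of Irf7 was lost with limma-voom (-1.13) and without any library of these days other than 1 dpi replicate 2 (-0.78 to -1.41). From 4 to 7 dpi edgeR called 0 of the 23, with 6 lower and 0 higher at an unadjusted P under 0.05, and DESeq2 and limma-voom called 0 as well.

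Genes that handle the products of nucleases moved in both directions. From 2 to 4 dpi, Slc29a3, a nucleoside exporter of the lysosome, rose from 82.1 ± 1.18 to 169.5 ± 19.6 CPM (log2FC = 1.05, SE 0.19, adjusted P = 0.00145, edgeR), at 0.95 without 4 dpi replicate 3. Entpd1 (CD39), which degrades extracellular ATP, rose from 101 to 399 CPM (log2FC = 1.98, SE 0.33, adjusted P = 0.000717), whereas Nt5e (CD73), which makes adenosine from the AMP it leaves, fell from 12.5 to 1.12 CPM (log2FC = -3.38, SE 0.62, adjusted P = 0.0012). Upp1, a uridine phosphorylase, was called as lower at 2 than at 1 dpi (log2FC = -2.13, SE 0.61, adjusted P = 0.0303), and that call was lost without any library of these days other than 1 dpi replicate 2 (-1.87 to -2.39). Adk, adenosine kinase, fell between 4 and 7 dpi (log2FC = -1.19, SE 0.21, adjusted P = 0.00161), as did Sidt2, a lysosomal RNA transporter (log2FC = -1.02, SE 0.20, adjusted P = 0.00223). Sidt2 lay so close to the fold threshold that 13 alternatives, with log2FC of -0.87 to -0.99, ended its call. Of the phospholipase D family, Pld1 and Pld2 were the only other members tested, with 0 called in edgeR in any step and 1 higher from 2 to 4 dpi at an unadjusted P under 0.05, which DESeq2 called and limma-voom did not.

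**Figure D3:**
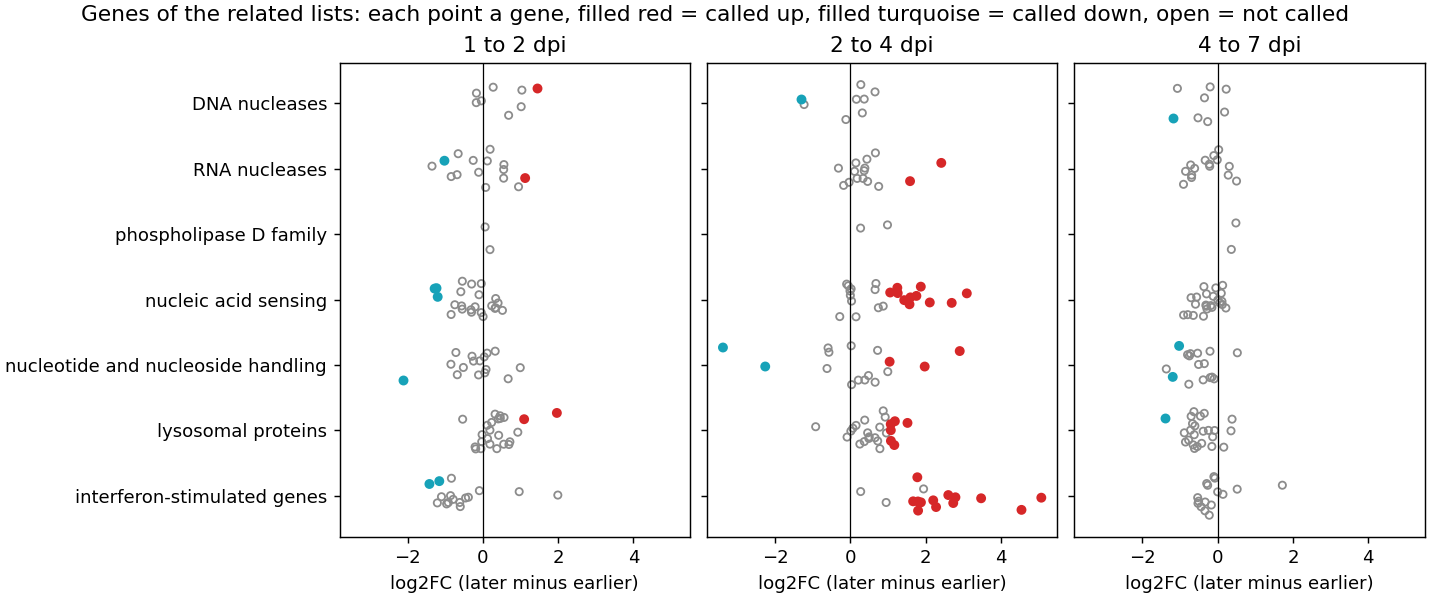
Log2FC (x-axis, later minus earlier day) of each tested gene in 5 lists of nucleic acid breakdown and sensing, and in lists of lysosomal proteins and interferon-stimulated genes (y-axis), for the 3 transitions. Filled points are DEGs (red up, turquoise down), and from 2 to 4 dpi they hold 11 of 23 sensing genes and 13 of 16 interferon-stimulated genes, all up.

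As a frame for the lysosomal enzymes, 24 genes of other lysosomal proteins were examined. From 1 to 2 dpi 2 rose, among them the glycosidase Gusb (log2FC = 1.09, SE 0.26, adjusted P = 0.00957, edgeR). From 2 to 4 dpi 6 rose (25.0%), at a list median of 0.69, among them the proteases Ctsh (log2FC = 1.52, SE 0.22, adjusted P = 0.000239, edgeR) and Ctss (log2FC = 1.19, SE 0.29, adjusted P = 0.00894). From 4 to 7 dpi the median was -0.57 and 1 gene fell, the protease Ctsl (log2FC = -1.39, SE 0.37, adjusted P = 0.0138, edgeR), with its call lost without 4 dpi replicate 1 or 7 dpi replicate 2 (log2FC of -1.13 and -0.97) and with the 6 libraries of these days alone (-1.33). Beside these medians, Pld3 had 0.82, 0.81 and -0.36, Pld4 -0.18, 1.32 and -0.05, and Dnase2a 0.14, 0.22 and -0.15.

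Of 16 interferon-stimulated genes, 13 rose from 2 to 4 dpi (81.2%), at a median of 2.08, such as Ifit2 (log2FC = 5.08, SE 0.56, adjusted P = 2.06e-05, edgeR), Ifit1 (log2FC = 2.74, SE 0.32, adjusted P = 3.05e-05) and Oasl2 (log2FC = 2.28, SE 0.27, adjusted P = 3.35e-05). From 1 to 2 dpi 2 fell, Rsad2 (log2FC = -1.42, SE 0.42, adjusted P = 0.0348, edgeR) and Cxcl10 (log2FC = -1.16, SE 0.35, adjusted P = 0.0373), and limma-voom called 0 of the list. Both calls were lost without 1 dpi replicate 3 (-0.82 and -0.56), 2 dpi replicate 2 (-1.11 and -1.08) or 2 dpi replicate 3 (-1.35 and -1.05), that of Rsad2 also without 1 dpi replicate 1 (-1.44) and that of Cxcl10 without 4 dpi replicate 3 (-1.15). From 4 to 7 dpi edgeR called 0, with 1 higher at an unadjusted P under 0.05, which DESeq2 and limma-voom called. Trex1, itself known as an interferon-stimulated gene, could not be set beside them.

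The genes most like each enzyme over the 12 libraries were found by Pearson correlation of log2 CPM among 6684 genes whose log2 CPM averaged 3 or more. All libraries share the 4 days, and a gene with a like step between days will correlate, so r is a description. For Dnase1l3 they were Usf1, a helix-loop-helix transcription factor (r = 0.979), F11r, the junctional adhesion molecule A (r = 0.978), Slc12a9 (r = 0.977), Mavs, the adaptor of RNA sensors (r = 0.973), Lair1, an inhibitory collagen receptor (r = 0.971), Rasa4 (r = 0.968), Znfx1 (r = 0.968) and Mylip, a ubiquitin ligase for the LDL receptor (r = 0.965). The means of all 8 were highest at 4 dpi, as for Dnase1l3, but started from a measurable base. Usf1, for instance, had means of 5.93, 7.97, 26.3 and 24.0 CPM over the 4 days, and Mavs 6.85, 8.58, 20.6 and 16.5 CPM.

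For Pld3 the closest genes were Fuca1, a lysosomal fucosidase (r = 0.987), Cd63, a tetraspanin of late endosomes (r = 0.972), and Creg1, a lysosomal glycoprotein (r = 0.967). For Dnase2a they were Ctsa, a lysosomal carboxypeptidase (r = 0.916), the fatty acid desaturase Scd2 (r = 0.915) and Hsbp1 (r = 0.897). For Pld4 they were Cybb, a subunit of the phagocyte NADPH oxidase (r = 0.983), Ly86, which binds an orphan Toll-like receptor (r = 0.978), and the peroxidase Gpx3 (r = 0.974). Cybb, at 183, 154, 848 and 1010.0 CPM over the days, kept its level at 7 dpi as Pld4 did. Among the enzymes themselves, r was 0.949 between Dnase1l3 and Pld4, 0.829 between Dnase2a and Pld3, 0.800 between Dnase1l3 and Pld3, 0.717 between Pld3 and Pld4, 0.664 between Dnase1l3 and Dnase2a and 0.524 between Dnase2a and Pld4. No such value is given for Rnaset2a, Rnaset2b or Trex1, whose counts were few or 0.

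DNASE1L3 and PLD4 are known from dendritic cells as well as from macrophages, so markers of other cells were set beside them. The 9 conventional dendritic cell markers summed to 19.3 to 31.7, 19.6 to 23.2, 26.8 to 37.6 and 32.4 to 70.6 CPM at 1, 2, 4 and 7 dpi. The 8 plasmacytoid dendritic cell markers summed to 3.65 to 6.03, 4.43 to 5.27, 6.90 to 8.83 and 8.91 to 11.5 CPM. Both sums stood higher at 4 than at 2 dpi without overlap, and all 17 genes had a count in some library. Most of each sum on these days came from a single gene. For the conventional list it was Clec10a, with 16.8, 17.8 and 14.6 CPM at 2 dpi and 17.6, 27.1 and 22.0 at 4 dpi. For the plasmacytoid list it was Runx2, with 3.91, 3.78 and 4.27 CPM at 2 dpi and 5.17, 5.06 and 5.75 at 4 dpi. The part of these cells in the levels of Dnase1l3 and Pld4 was not tested.

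Between libraries of the same day, the markers took different orders. At 4 dpi, Dnase1l3 had 20.6, 50.9 and 59.1 CPM in replicates 1 to 3, and both dendritic cell sums were also lowest in replicate 1. Batf3 (1.33, 3.73 and 3.78 CPM), Ccr9 (0.212, 0.621 and 0.746), Siglech (0.0605, 1.15 and 0.439) and Clec10a (17.6, 27.1 and 22.0) were lowest there too, as were Xcr1, Cd209a and Itgae. Flt3, a defining receptor of dendritic cells, was highest there (1.39, 0.755 and 1.05), as was Ccr7 (1.94, 0.533 and 1.76). Zbtb46, Clec9a, Spib, Cox6a2, Pacsin1 and Runx2 (5.17, 5.06 and 5.75) were not lowest there. Klk1 and Ly6d had only 6 counts each in all libraries. At 7 dpi, replicate 2 had the least Dnase1l3 and the highest conventional dendritic cell sum, mostly Clec10a (37.4 CPM) and Cd209a (14.2 CPM). It had the most Flt3 (2.59 CPM, with 1.24 and 0.735 in the others) and the most Siglech (4.59 CPM, with 1.57 and 1.98). Batf3, Ccr7, Ccr9, Clec9a, Spib and Zbtb46 were also highest there. Xcr1 (0.594, 0.431 and 0.678 CPM in replicates 1 to 3), Itgae (0.648, 0.185 and 0.48), Runx2 (4.75, 3.73 and 5.935) and Pacsin1 were lowest there. Clec9a, which marks cross-presenting dendritic cells, stayed under 1 CPM in every library.

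Markers of other cells differed between days as well. The 7 B cell markers summed to 7.07 to 16.8, 15.8 to 21.6, 68.5 to 200.2 and 125 to 175 CPM over the 4 days. At 4 and 7 dpi nearly all of it was Ighm, the IgM heavy chain, which made up 3.62 of 7.07 CPM in 1 dpi replicate 1. Ighm had 64.0, 193 and 138 CPM at 4 dpi, whereas Pax5, which defines B cells, was at 0 in all 3 of those libraries. The 6 fibroblast markers summed to 14.4 to 50.6, 27.4 to 43.3, 131.5 to 255.5 and 409 to 831 CPM over the days, and the 6 muscle fibre markers to at most 14.3 CPM up to 4 dpi and 36.3 to 96.2 CPM at 7 dpi. The 9 neutrophil markers, with Camp at 0 throughout, summed to 130.5 to 203 CPM at 1 dpi and 55.2 to 64.6 at 2 dpi. The sums were 63.4 to 82.1 CPM at 4 dpi and 43.5 to 52.6 at 7 dpi. At 4 dpi most of it was Csf3r (41.2, 65.9 and 58.0 CPM), and at 7 dpi nearly all (41.4, 51.4 and 48.8). From 2 to 4 dpi Csf3r was a DEG upward, whereas S100a9, Cxcr2 and S100a8 were DEGs downward (edgeR). S100a8 had 2.55, 4.98 and 3.66 CPM at 2 dpi and 1.09, 0.444 and 0 at 4 dpi. The 7 endothelial markers had 26.7 to 48.0 CPM up to 4 dpi and 42.9 to 91.7 at 7 dpi, and the 8 markers of T and NK cells at most 3.08 CPM. The part of these cells in the levels of the nucleases was not tested.

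**Figure D4:**
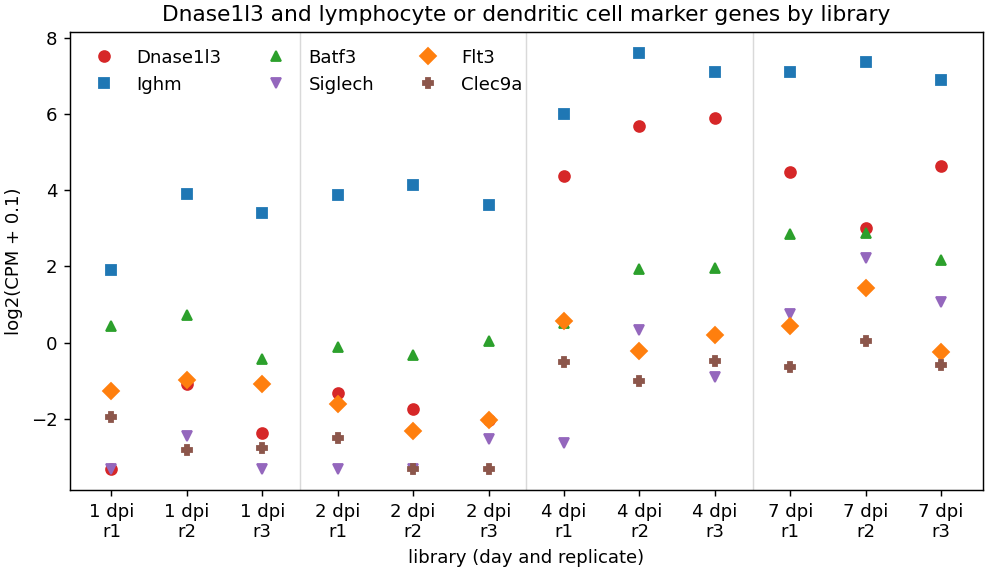
Log2 of CPM plus 0.1 (y-axis) of Dnase1l3, of Ighm and of 4 dendritic cell markers in each of the 12 libraries (x-axis, by day and replicate). Dnase1l3 and Ighm are both higher from 4 dpi on, while Siglech, Batf3 and Flt3 are highest in 7 dpi replicate 2, the library of that day with the least Dnase1l3.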

How the data were processed

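RNA of sorted macrophages was sequenced in 12 libraries. The authors deposited raw counts per gene, made with Trim Galore 0.6.6, HISAT2 2.2.1 (GRCm39) and Subread 2.0.1 per the submitters' processing notes. Their annotation release is not given in the sources used here. A median of 83.1% of counts from 1 to 20 were even, so mates may have been counted singly and small counts may overstate fragments. Symbols, exonic lengths and shared sequence came from GENCODE M21 on GRCm38, joined by gene ID, and 52081 of 55414 IDs had a symbol.

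A quasi-likelihood model with a coefficient per day was fitted in edgeR 4.0.16 (R 4.3.3) to the 14310 genes that filterByExpr kept, after TMM scaling, with Benjamini-Hochberg adjustment over all genes. A DEG needed an FDR under 0.05 and a log2FC beyond 1 in either direction. Log2 CPM used a prior count of 2. DESeq2 1.42.0, limma-voom (limma 3.58.1), other filters and scalings, the 6 libraries compared alone, a replicate block and the omission of each library or of the gene with most counts were alternatives. The fit was tested on simulated data. Named were the 7 genes, per list and transition the 3 DEGs of smallest adjusted P, and the genes most correlated with each enzyme (8 for Dnase1l3, 3 for the others). Some genes that met this rule are not reported here. The enzymes, the lists, which were written from general knowledge, and this rule were chosen with earlier results of these data known. Floors cover counting error only.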

Additional observations from a re-analysis of the deposited data

How the results depend on the processing

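Of the 30 DEGs named, 18 kept their call under each alternative run for them (23 settings in all) and 0 changed direction. Without the threshold on the fold, 4 pathway genes rose and 11 fell from 1 to 2 dpi, 14 fell from 4 to 7 dpi, and 2785 and 3656 of all genes were called from 2 to 4 and from 4 to 7 dpi. With limma-voom, 3 pathway genes fell from 1 to 2 dpi. With each library left out in turn, 1 to 5 pathway genes rose and 1 to 5 fell from 1 to 2 dpi (both 1 without 1 dpi replicate 3), and 1 to 5 fell from 4 to 7 dpi (1 without 7 dpi replicate 2, 5 without 7 dpi replicate 3). All calls ranged from 1122 to 2325 from 2 to 4 dpi, the most without 4 dpi replicate 1, and from 1009 to 2626 from 4 to 7 dpi, without 7 dpi replicates 2 and 3, respectively. The log2FC of Dnase1l3 from 1 to 2 dpi, from few counts, ranged from -0.13 to 1.82, the latter without 1 dpi replicate 2. The cause of these shifts was not tested.

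The replicate number was also fitted as a replicate block. Deviations of same-numbered libraries correlated at -0.13 to 0.13 over 18 pairs, with 1 pair above 0.1. Of the 12 libraries, 7 correlated best with their own number. The labels do not say whether same-numbered libraries belong together, and correlations this weak cannot decide it. Under the block, 16 pathway genes rose and 3 fell from 2 to 4 dpi, and the call of Cxcl10 from 1 to 2 dpi was lost. Dnase1l3 at 1 and 2 dpi and both Rnaset2 genes on all days had fewer than 20 counts per library, which limits the precision of their values.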
